A study of Mus musculus with 30 samples.

Results

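Between embryonic day 12.5 (e12.5) and embryonic day 13.5 (e13.5) the mouse dorsal pancreas gained transcripts of digestive enzymes and of endocrine genes. In all, 30 of 15964 genes passed an adjusted p under 0.05 and a 2-fold minimum. The comparison took every array titled for these days from the value tables of the 3 chips of the MG-U74 version 2 set (A, B and C), which is 12 of the 30 arrays in the series. Each chip held 2 arrays of e12.5 and 2 of e13.5 and was compared on its own. Embryos came from timed matings of NMRI mice, with no genetic or drug treatment, and the remaining arrays covered e14.5, e15.5 and e16.5. Dorsal buds of a litter were dissected and combined before RNA was extracted. The number of litters in a pool is not given in the labels. The same pool supplied the 2 labelling reactions hybridised to all 3 chips. The spread between arrays of a stage is therefore that of labelling and hybridisation. With 1 pool of whole tissue a stage, stage and pool cannot be told apart, and more cells of a type cannot be told apart from more RNA in each cell.

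The pancreatic bud at these days is a branching epithelium of multipotent progenitors surrounded by mesenchyme. Progenitors at the branch tips go on to form acinar cells, which make and secrete digestive enzymes, while cells of the trunk form ducts or, after a pulse of the transcription factor Neurog3, endocrine cells. The mesenchyme supplies growth signals to the epithelium, and blood vessels, nerves and circulating embryonic red cells run through it.

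The dissected tissue carried markers of that organ. Carboxypeptidase Cpa1, a marker of the branch tips, lay between 10.73 and 12.02 on the log2 scale in the 4 arrays of chip C, whose median probe set stood at 4.01. Glucagon (Gcg) lay between 12.36 and 12.74 on the same chip. Keratin Krt8 lay between 9.05 and 9.67 on chip A, whose median was 5.75. The pancreatic factor Pdx1 was close to that median, at 5.64 and 5.67 at e12.5 and 5.92 and 5.98 at e13.5. Nkx2-5 of spleen mesenchyme (6.72 at e12.5 and 6.51 at e13.5) and Barx1 of stomach mesenchyme (6.73 and 6.52) also stood above the median of chip A. A second Barx1 probe set on that chip read 6.91 and 6.97, then 6.57 and 6.58, a change of -0.37 (limma adjusted p = 0.00182). The gut factors Sox2 and Cdx2, the liver gene Alb and the leukocyte gene Ptprc stood below it in all 4 arrays. A second liver gene, Afp, stood above it by its brighter probe set, at 6.13 and 6.14, then 6.39 and 6.25. The other Afp probe set stood below it, at 5.03 and 4.84, then 4.83 and 5.0.

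A gene was called when the limma test gave a Benjamini-Hochberg adjusted p under 0.05 over all 36701 probe sets and the change was at least 2-fold. Each of the 15964 named genes was read by its brightest probe set. By this rule 20 genes rose, 0.125% of those tested, and 10 fell, 0.0626%. At a minimum of 1.5-fold, 70 genes (0.438%) were higher and 103 (0.645%) lower, and the median change of all genes was 0.00. Over all genes 8027 changes were positive and 7937 negative, which is the background for the sign counts of lists below. The percentages of called genes above are the background for the called counts of those lists. Arrays of the same stage correlated at 0.997 or 0.998 on every chip, and no probe set differed 2-fold between labelling reactions. Arrays of different days correlated at 0.996 on chips A and C but at 0.986 to 0.991 on chip B.

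**Figure D1:**
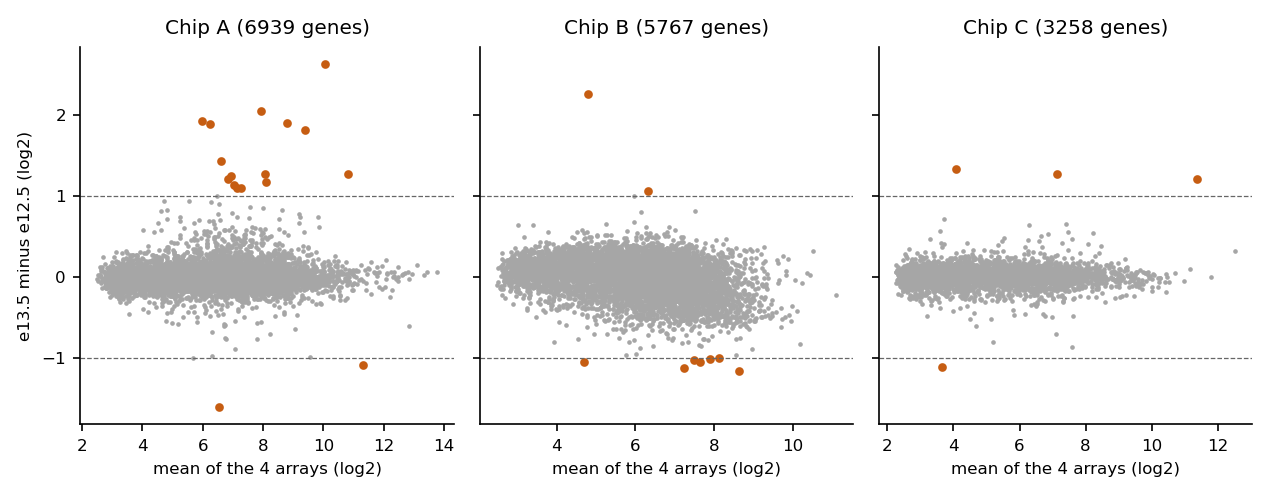
Change from e12.5 to e13.5 (log2) against the mean of the 4 arrays (log2) for every named gene, by chip; coloured points passed the adjusted p and the 2-fold minimum marked by dashed lines. Called rises lie mainly on chip A (15 of 20) and called falls mainly on chip B (7 of 10), where the cloud of points is widest and tilts down at high levels.

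The chips differed in this step in a way that bears on the falls. The changes had a standard deviation of 0.23 on chip B, against 0.16 on chip A, 0.12 on chip C and 0.14 on chip B from e13.5 to e14.5. On chip B the top quartile of probe sets by level had a median change of -0.06 and those below the chip median +0.06. A similar spread and tilt occurred on chip B from e15.5 to e16.5 (0.23, with medians of -0.06 and 0.06). Chip A had a wider spread in that later step (0.29, with medians of -0.10 and 0.06). Of the 91 genes that were at least 1.5-fold lower by a chip B probe set, 37 also had a probe set above the median of chip A or C. Their median change was -0.67 on chip B and -0.11 on the other chip, 32 had the same sign there, and 1, the ephrin gene Efna5, passed the 1.5-fold minimum there too. For the 54 genes higher on chip A the corresponding medians over the 17 with another chip were 0.74 and 0.25, and 2 of them, Anxa4 and Neurog3, passed on the other chip. The first value of each pair chose the gene, and the part of hybridisation in the falls on chip B was not tested. Values resting on chip B are marked as such below. Without that chip 18 genes rose and 3 fell.

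**Figure D2:**
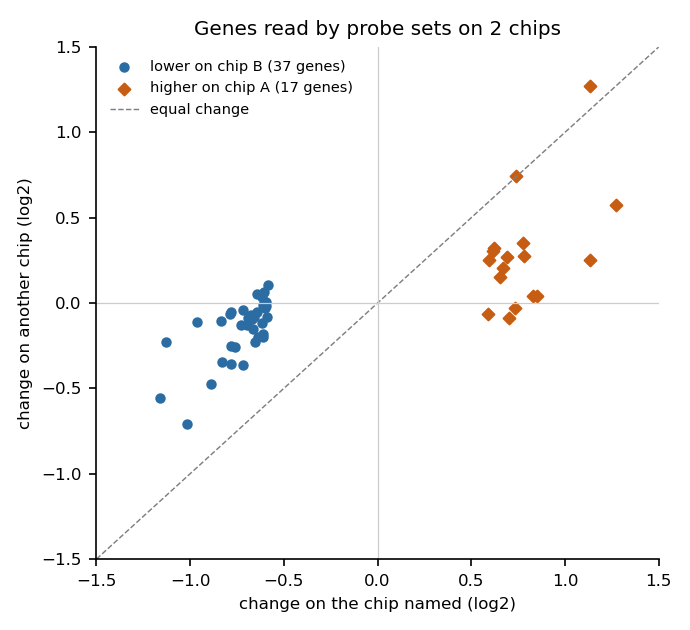
Change (log2) of genes that passed the 1.5-fold minimum on the chip named in the key (horizontal axis) against the change of their probe set on another chip (vertical axis), with a dashed line of equal change. Most of the 37 genes lower on chip B and of the 17 genes higher on chip A lie nearer to 0 on the second chip, and 32 and 14 of them keep the sign.

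**Figure D3:**
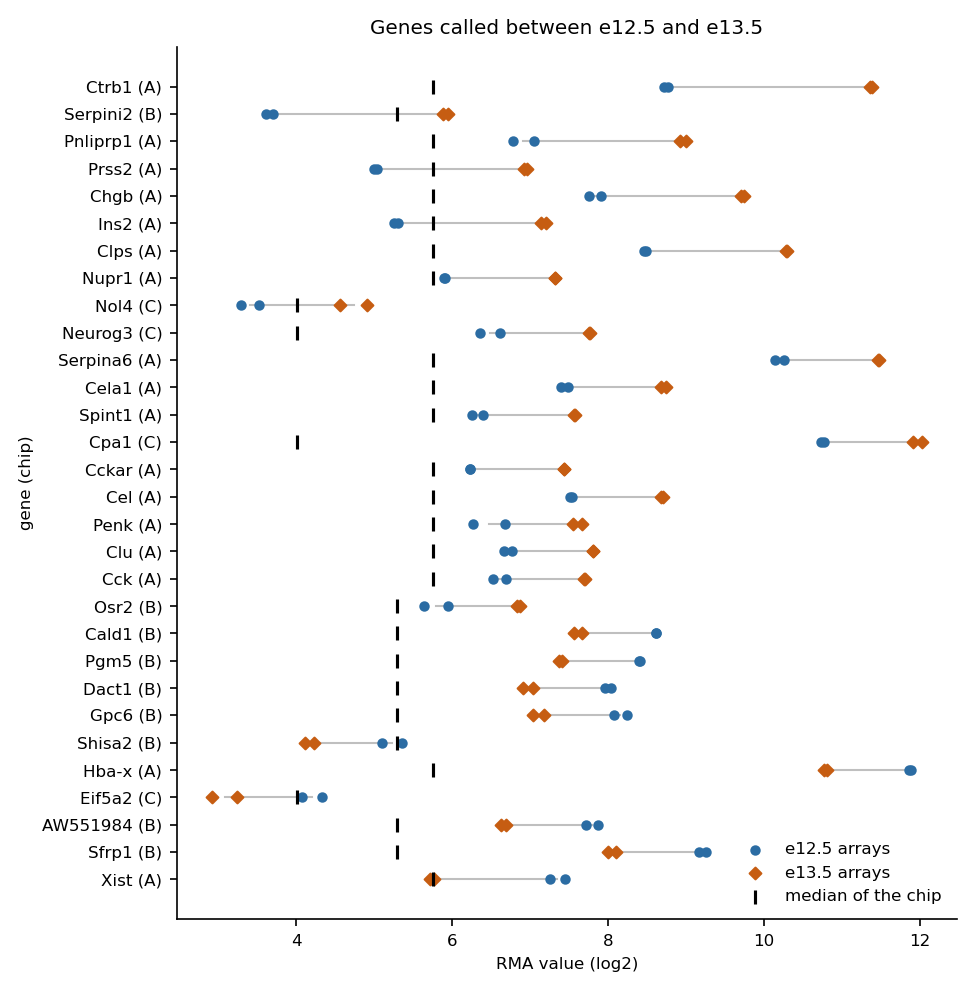
RMA values (log2) of the 30 called genes in the 2 arrays of e12.5 (circles) and the 2 of e13.5 (diamonds), with the chip in brackets and a black tick at the median probe set of that chip. The days overlap in none of the 30 genes, which the call itself ensures, as no probe set differed 2-fold between labelling reactions. The change ranges from 2.63 for Ctrb1 to -1.61 for Xist.

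The acinar genes gave the largest group of rises. Of 16 measured genes for secreted digestive enzymes, 7 rose and none fell, with a median change of 0.53, against 0.125% of all genes rising. Chymotrypsinogen B (Ctrb1) read 8.72 and 8.77 at e12.5 and 11.36 and 11.39 at e13.5, the largest change of any named gene. The e13.5 arrays were the higher by far more than either pair differed, a 6.18-fold rise (log2 change 2.63, SE 0.059, limma adjusted p = 9.98e-10). The only probe set of Ctrb1 is of relaxed design. The pancreatic lipase-related Pnliprp1 read 6.78 and 7.04, then 9.0 and 8.93 (4.14-fold, SE of the log2 change 0.086). Trypsinogen Prss2 read 5.0 and 5.03, then 6.92 and 6.96 (3.79-fold). Thus Prss2 was below the chip median at e12.5 and above it at e13.5; its probes are of a design shared among related trypsinogens, so this signal may not come from Prss2 alone. Colipase (Clps), the cofactor of pancreatic lipase, read 8.49 and 8.46, then 10.29 and 10.30 (3.52-fold).

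The other enzyme rises were smaller. Elastase Cela1 read 7.40 and 7.48, then 8.75 and 8.67 (2.41-fold, limma adjusted p = 5.87e-07). Cpa1 read 10.73 and 10.77, then 11.91 and 12.02 (2.32-fold, adjusted p = 5.74e-07). The bile salt-stimulated lipase Cel read 7.53 and 7.51, then 8.70 and 8.68 (2.26-fold). In each of them both e13.5 arrays lay above both e12.5 arrays, which the 2-fold minimum ensures for every called rise. Cpb1 and Cela3b, both read on chip B, had changes of 0.55 and 0.51 that met the adjusted p but not the fold minimum. The remaining 7 enzyme genes had changes between -0.09 and 0.13, among them Cela2a (0.12), Ctrl (0.10) and Rnase1 (0.13). A pair of chip A probe sets annotated to several amylase 2 genes at once, and therefore assigned to none, had the largest rises of all probe sets, of which 29 (0.079%) rose and 18 (0.049%) fell. The first read 3.24 and 3.54, then 7.14 and 7.06 (13.1-fold), and the other 3.64 and 3.61, then 6.76 and 6.94 (9.34-fold). Both went from well below to above the chip median. The single-gene probe set of Amy2a5, on chip C, was dim in all 4 arrays, at 3.68, 2.94, 3.59 and 3.28.

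The promoters of the acinar genes that rose are shown because acinar transcription is textbook work of the PTF1 complex, in which Ptf1a and its partners bind an E-box (CACCTG or CAGCTG) followed by a TC-box (TTTCCC). The sequences are the 250 bases before the gene start in RefSeq's GRCm38.p6, read 5′ to 3′ on the gene's strand, and capitals mark these letters on either strand. They lie at chr8:111691011-111691260 (minus strand) for Ctrb1, chr15:100687921-100688170 (minus) for Cela1, chr2:28563404-28563653 (minus) for Cel, chr6:41521526-41521775 (plus) for Prss2, chr6:30638968-30639217 (plus) for Cpa1, chr3:75270079-75270328 (minus) for Serpini2 and chr19:58728637-58728886 (plus) for Pnliprp1. These are all 7 acinar risers with a sequence in the table. Cpa1 holds only TTTCCC, Serpini2 only CACCTG, and Pnliprp1 none of the 3 motifs.
Ctrb1: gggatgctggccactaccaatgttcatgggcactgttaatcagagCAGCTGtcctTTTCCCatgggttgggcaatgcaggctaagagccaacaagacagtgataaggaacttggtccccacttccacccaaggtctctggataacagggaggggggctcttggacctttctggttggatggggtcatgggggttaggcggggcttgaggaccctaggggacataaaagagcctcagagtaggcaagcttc
Cela1: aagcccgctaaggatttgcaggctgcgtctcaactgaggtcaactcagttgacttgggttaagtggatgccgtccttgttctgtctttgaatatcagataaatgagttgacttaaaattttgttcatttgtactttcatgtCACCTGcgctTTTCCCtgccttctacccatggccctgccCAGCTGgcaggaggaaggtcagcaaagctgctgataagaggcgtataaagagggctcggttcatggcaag
Cel: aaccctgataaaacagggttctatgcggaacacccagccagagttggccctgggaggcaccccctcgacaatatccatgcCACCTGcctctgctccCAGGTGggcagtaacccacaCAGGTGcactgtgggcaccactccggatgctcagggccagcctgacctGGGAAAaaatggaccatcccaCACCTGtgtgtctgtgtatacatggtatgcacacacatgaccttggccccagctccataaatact
Prss2: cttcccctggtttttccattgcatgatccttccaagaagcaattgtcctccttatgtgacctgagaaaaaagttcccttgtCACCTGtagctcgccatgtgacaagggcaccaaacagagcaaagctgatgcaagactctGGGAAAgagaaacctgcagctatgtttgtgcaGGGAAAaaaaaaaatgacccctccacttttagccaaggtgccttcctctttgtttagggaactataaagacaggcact
Cpa1: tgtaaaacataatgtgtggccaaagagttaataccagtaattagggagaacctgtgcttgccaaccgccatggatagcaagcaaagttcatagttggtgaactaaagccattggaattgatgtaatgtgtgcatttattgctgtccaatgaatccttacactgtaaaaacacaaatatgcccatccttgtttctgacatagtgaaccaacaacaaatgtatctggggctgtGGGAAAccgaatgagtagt
Serpini2: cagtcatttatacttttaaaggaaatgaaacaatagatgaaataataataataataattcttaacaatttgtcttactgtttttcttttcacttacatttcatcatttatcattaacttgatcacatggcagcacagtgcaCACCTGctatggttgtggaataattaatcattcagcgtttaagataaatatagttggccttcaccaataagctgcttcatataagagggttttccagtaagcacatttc
Pnliprp1: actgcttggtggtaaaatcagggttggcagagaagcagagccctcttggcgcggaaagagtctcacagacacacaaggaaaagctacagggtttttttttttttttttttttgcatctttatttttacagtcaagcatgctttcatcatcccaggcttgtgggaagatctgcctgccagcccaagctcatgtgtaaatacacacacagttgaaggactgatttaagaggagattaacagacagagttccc
In Ctrb1 the E-box starts 205 bases before the gene start and TTTCCC 195 bases before it. In Cela1 the corresponding starts are 109 and 99 bases before it, which is the same spacing of 10 bases. That spacing was picked after the sequences were seen, and 7 of 32851 mouse promoters of this length (0.0213%) hold such a pair on 1 strand. Of the 9 acinar genes that rose, enzymes and other products together, 7 had a promoter in the table. CACCTG occurred in 4 of them (17.2% of all promoters), CAGCTG in 2 (13%), TTTCCC in 5 (21.9%) and an E-box together with TTTCCC anywhere in the window in 4 (5.91%). A match describes the letters and is not a measured binding site.

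Of 24 other products of acinar cells, 2 rose and none fell, with a median change of 0.04, against 0.125% of all genes rising. The serine protease inhibitor Serpini2, read on chip B, was at 3.70 and 3.61, then 5.95 and 5.88 (4.79-fold, limma adjusted p = 3.88e-10), so it crossed the median of that chip, 5.29. The cholecystokinin receptor Cckar, through which the gut hormone stimulates enzyme secretion, read 6.23 in both e12.5 arrays and 7.44 in both e13.5 arrays (2.31-fold). Among products of the mature cell, syncollin (Sycn), Spink1, Cuzd1 and the zymogen granule gene Gp2 had changes of 0.13, 0.06, 0.04 and 0.03, with adjusted p above the threshold. Only 12 of the 24 listed products had a mean level above their chip's median at e12.5 or e13.5, which limits what the list can show.

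None of 10 acinar transcription factors was called, with a median change of 0.15. Bhlha15 (Mist1), which organises the secretory apparatus, passed at the 1.5-fold minimum on chip B, at 5.73 and 5.73, then 6.67 and 6.38 (1.74-fold). The nuclear receptor Nr5a2 read 7.06 and 6.99, then 7.49 and 7.46 (change 0.45, adjusted p = 0.000846), and Xbp1, a regulator of the secretory pathway, changed by 0.46 at an adjusted p under the threshold but short of either fold. Ptf1a read 7.10 and 7.33, then 7.38 and 7.52, a change of 0.23 with an adjusted p of 0.12. A dimmer Ptf1a probe set on the same chip, still above its median, read 5.26 and 5.39, then 5.95 and 5.98, a change of 0.64 (adjusted p = 0.000344) that passed at 1.5-fold, and the other 2 were below the median with changes of -0.23 and 0.05. Rbpjl, the late partner of Ptf1a, had a change of -0.15. Among 38 measured genes of folding in the endoplasmic reticulum none was called and 1 passed at 1.5-fold, the oxidoreductase Ero1b (0.69), whose other probe sets on chips B and C, below their medians, each had a change of -0.06.

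Endocrine genes were the second group to rise. Neurog3, the transcription factor that commits progenitors to the endocrine fate, read 6.36 and 6.62 at e12.5 and 7.77 and 7.75 at e13.5 on chip C. The rise was 2.42-fold (log2 change 1.27, SE 0.088, limma adjusted p = 3.37e-06). Its chip A probe set read 6.37 and 6.44, then 7.62 and 7.45 (change 1.13), so the rise was called on both chips. Of 22 endocrine transcription factors Neurog3 alone was called, and the list had a median change of 0.21. At the 1.5-fold minimum 3 more were higher, all on chip A: Myt1 (0.69, and 0.27 on chip C), Neurod1 (0.66) and Nkx2-2 (0.59), which act in cells that express Neurog3 or descend from them. Foxa2 (0.54), Pou3f4 (0.52), Pax6 (0.48), Insm1 (0.46) and Pax4 (0.37) met the adjusted p with smaller changes. The LIM factor Isl1 read 6.21 and 6.09, then 6.13 and 6.04, and its stages overlapped. Sox11 went the other way, with a change of -0.89 on chip B, -0.47 on chip C and -1.33 for a dimmer chip A probe set of shared design.

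Among 9 hormone genes 2 rose and none fell, with a median change of 0.32, against 0.125% of all genes rising. Insulin 2 (Ins2) read 5.26 and 5.31, then 7.20 and 7.14 (3.70-fold, limma adjusted p = 2.74e-08), crossing the chip median. Its other probe set, of relaxed design, read 6.68 and 6.74, then 6.37 and 6.62, a change of -0.22 with an adjusted p above the threshold, so the rise rests on 1 of 2 probe sets. The probe set that rose is of shared design. Cholecystokinin (Cck) read 6.52 and 6.69, then 7.69 and 7.70 (2.13-fold). Islet amyloid polypeptide (Iapp), which is secreted together with insulin, passed at 1.5-fold with 6.02 and 6.13, then 6.96 and 7.0, and so did gastrin (Gast, 0.70) on chip A, whose chip C probe set, above the median, had a change of -0.09. Glucagon had a change of 0.32 (adjusted p = 0.011) on chip C; its chip A probe set, at 8.98 and 9.22, then 9.68 and 9.77, had a change of 0.62. Somatostatin (Sst, 0.10), pancreatic polypeptide (Ppy, 0.02) and peptide YY (Pyy, -0.07) did not pass.

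Of 29 genes for the hormone granule 1 rose and the median change was 0.20. Chromogranin B (Chgb), a granule matrix protein, read 7.76 and 7.90, then 9.71 and 9.74 (3.72-fold, limma adjusted p = 4.4e-08). That probe set is of shared design, and the other probe sets of Chgb, below the medians of chips A and C, had changes of -0.00 and -0.05. Carboxypeptidase E (Cpe), which trims prohormones, passed at 1.5-fold (0.85) on chip A, but its chip C probe set, above that chip's median, had a change of 0.04 (adjusted p = 0.877). Chromogranin A (Chga) read 7.16 and 7.07, then 7.69 and 7.58 (change 0.52), and a dimmer probe set had a change of -0.04. Scg2 (0.56), Ptprn2 (0.58, chip B) and Pcsk1n (0.37) met the adjusted p with smaller changes; the prohormone convertase gene Pcsk1 (0.23) did not. Among 13 genes of beta cell function none was called; the imprinted gene Nnat, an abundant transcript of the bud, passed at 1.5-fold in the other direction, at 10.05 and 10.08, then 9.10 and 9.05. Proenkephalin (Penk), an opioid precursor, read 6.68 and 6.27, then 7.66 and 7.55 (2.19-fold) by 1 probe set of shared design, while its other 3 probe sets had changes of 0.08, 0.11 and 0.25. Nol4, a nucleolar protein gene, was dim at e12.5 (3.52 and 3.29) and above the chip C median at e13.5 (4.91 and 4.57), a 2.52-fold rise with the widest error of the called rises (SE 0.15).

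**Figure D4:**
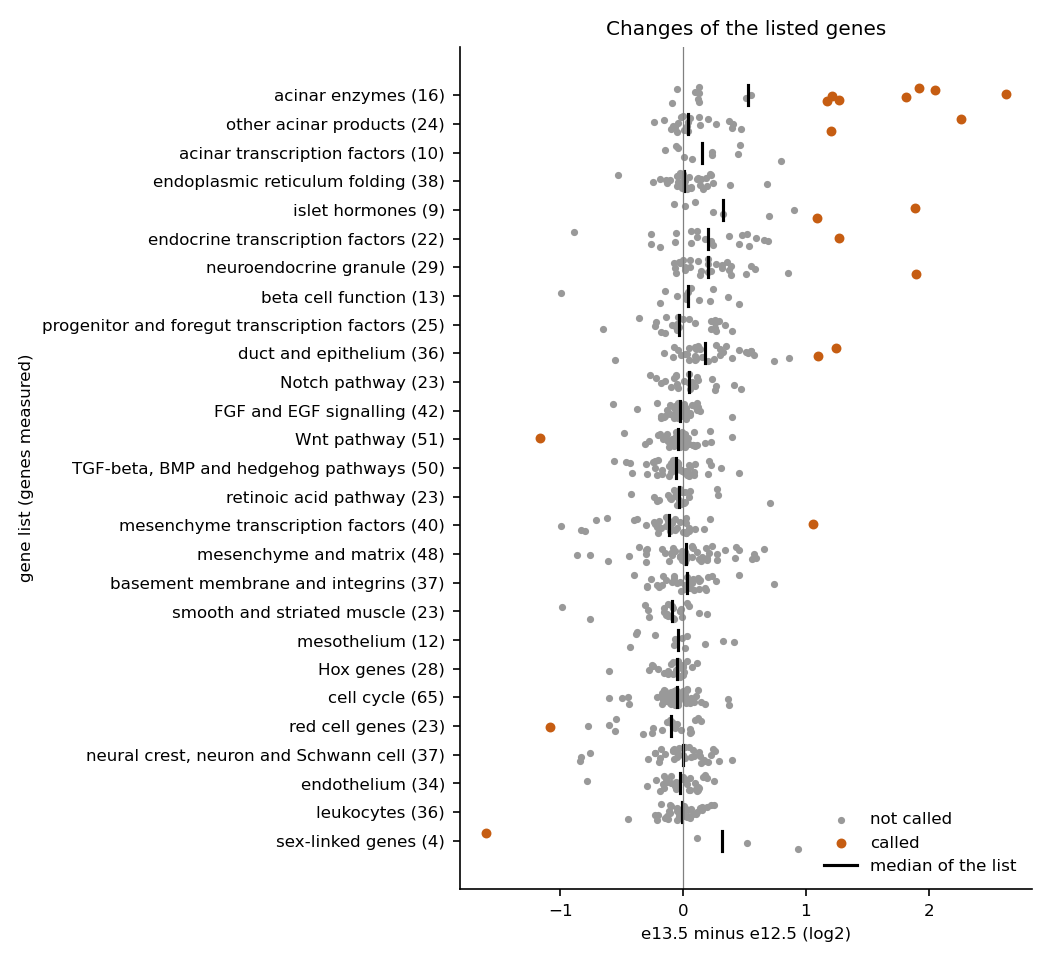
Change from e12.5 to e13.5 (log2) of each measured gene of the lists, with the number of genes in brackets, coloured points for called genes and a black tick at the median of the list. Medians lie at 0.53 for acinar enzymes, 0.32 for islet hormones and near 0 for most other lists.

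Epithelial genes were shifted upward with few calls. Of 36 duct and epithelial genes 30 had a positive change, the median was 0.18 against 0.00 for all genes, 2 rose and none fell. Over all genes 0.125% rose. The membrane-bound protease inhibitor Spint1 read 6.4 and 6.26, then 7.56 and 7.58 (2.37-fold, limma adjusted p = 1.3e-06); its dim chip B probe set had a change of 0.18. Clusterin (Clu), a secreted chaperone, read 6.76 and 6.66, then 7.81 and 7.81 (2.14-fold), and its second probe set had a change of 0.55. The tight junction gene Cldn3 (0.86) and the annexin Anxa4 (0.74) passed at 1.5-fold. Keratins Krt8, Krt18 and Krt7 had changes of 0.55, 0.53 and 0.51, and Muc1 0.56, each meeting the adjusted p. The general epithelial genes Cdh1 (0.05) and Epcam (0.03) had overlapping stages by their brightest probe sets. A chip A probe set of Epcam, just below the chip median, read 5.04 and 5.06, then 5.56 and 5.62 (change 0.54, adjusted p = 0.00157), and its other chip C probe sets had changes of 0.36 and 0.05. Carbonic anhydrase Car2, also expressed by red cells, had a change of -0.55.

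Progenitor factors had small changes. None of 25 was called and the median was -0.04. Sox9 read 7.61 and 7.39, then 7.57 and 7.52 on chip B, Hnf4a had a change of 0.26, and Pdx1 one of 0.29 (adjusted p = 0.0184). The chromatin protein Hmga2, abundant in early embryonic tissue, passed at 1.5-fold on chip A, at 9.31 and 9.46, then 8.68 and 8.79. In the Notch pathway, which holds progenitors back from differentiation, none of 23 genes passed at either minimum. The ligand Dll1, a target of Neurog3, read 6.83 and 6.67, then 7.24 and 7.21 (0.48). Hes6 (0.41), the receptor Notch1 (0.24) and the effector Hes1 (0.27) also met the adjusted p, and Rbpj, the DNA-binding partner of the receptors, had a change of -0.27 on chip B. Proliferation genes had small changes: none of 65 was called, the median was -0.05, and Mki67 read 7.95 and 8.04, then 7.93 and 7.98. The kinetochore motor Cenpe passed at 1.5-fold on chip B, at 8.97 and 8.93, then 8.39 and 8.31.

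Of the 10 genes that fell, 7 were read on chip B. Of 51 Wnt pathway genes 1 fell, against 0.0626% of all genes, and the median was -0.04. The secreted Wnt inhibitor Sfrp1 read 9.25 and 9.17, then 7.99 and 8.10 on chip B (2.24-fold lower, limma adjusted p = 4.29e-07). On chip A it read 8.95 and 9.0, then 8.44 and 8.41, a change of -0.55 (adjusted p = 0.000725), so the direction held on both chips and the 2-fold size on 1. Wnt5a, a mesenchymal ligand read on chip A, had a change of -0.48 and the related inhibitor Sfrp2 one of 0.40. Dact1, a Dishevelled-binding regulator, read 8.04 and 7.96, then 6.91 and 7.04 on chip B (2.03-fold lower), but its dimmer second probe set on that chip had a change of -0.02. The heparan sulphate proteoglycan Gpc6, also on chip B, read 8.25 and 8.07, then 7.18 and 7.03 (2.08-fold lower). Sfrp1, Dact1 and Gpc6 were no longer called after repeated quantile normalization.

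Among 40 mesenchymal transcription factors 1 rose, none fell and 29 had a negative change, with a median of -0.11. Osr2 read 5.63 and 5.95, then 6.83 and 6.87 on chip B (2.08-fold higher, limma adjusted p = 2.23e-05), against the direction of its list. At the 1.5-fold minimum, by which 0.645% of all genes were lower, 5 of the 40 were lower. Of these, the chip A genes were the nuclear receptor Nr2f1, at 6.23 and 6.15, then 5.32 and 5.06, and Tcf21, at 8.52 and 8.64, then 7.92 and 7.82. Hand2, Foxp2 and Zeb2 were read on chip B, with changes of -0.83, -0.80 and -0.62; for Hand2 the chip A probe set had a change of -0.34 (adjusted p = 0.0732). The matrix genes moved both ways: of 48 none was called, 2 were higher at 1.5-fold (Postn 0.66 and Col6a3 0.59) and 3 lower (the integrin Itga8 -0.86 on chip C, Fbn2 -0.76 on chip B, where chip A gave -0.26, and Cdh2 -0.61 on chip A). The collagens Col1a1 and Col3a1 had changes of -0.01 and 0.28 by their brightest probe sets, neither past the adjusted p. The other chip A probe sets of these genes, above the chip median, did pass it, with changes of 0.32 for Col1a1 and of 0.47 and 0.35 for Col3a1. The mean level of the matrix list was 7.34 and 7.40 at e12.5 and 7.39 and 7.40 at e13.5, while that of the transcription factors was 5.96 and 5.94, then 5.81 and 5.79.

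Caldesmon (Cald1), an actin-binding regulator of contraction, read 8.62 in both e12.5 arrays and 7.66 and 7.56 at e13.5 on chip B (2.01-fold lower, limma adjusted p = 5.74e-07). Its other probe sets on that chip both had a change of -0.97. Pgm5, a protein of cell adhesion sites in muscle, read 8.39 and 8.42, then 7.37 and 7.41 on chip B (2.02-fold lower). Cald1 and Pgm5 were no longer called after repeated quantile normalization or cyclic loess. These genes are in none of the lists. Of 23 muscle genes 19 had a negative change and none was called, but Tagln (6.84 and 6.74, then 5.83 and 5.78) and smooth muscle actin Acta2 (7.08 and 7.13, then 6.37 and 6.34) passed at 1.5-fold on chip A. So did calponin Cnn2 (-0.90) and the myosin light chain Myl9 (-0.76), both on chip A and picked after their values were seen. Myh11, a smooth muscle myosin, had a change of 0.20 on chip B and the skeletal muscle factor Myod1 one of -0.02.

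Embryonic globins were lower, and the adult ones barely so. Zeta globin (Hba-x), made by the primitive red cells of the yolk sac, read 11.88 and 11.86, then 10.82 and 10.77 (2.12-fold lower, limma adjusted p = 4.82e-06). Hbb-bh1 (8.25 and 8.10, then 7.44 and 7.37) and Hbb-y (13.14 and 13.17, then 12.55 in both, and a change of -0.96 for its dimmer chip A probe set) passed at 1.5-fold. The adult gene Hba-a1 read 12.34 and 12.33, then 12.10 and 12.07, a change of -0.24. The haem enzyme Alas2 had a change of -0.32, and the list of 23 red cell genes had a median of -0.10 with 1 fall. Its mean level was 6.99 and 6.92, then 6.77 and 6.74, a smaller difference than that of the 3 embryonic globins alone, which had 11.09 and 11.04, then 10.27 and 10.23.

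The mean levels of the marker lists of other cells were as follows. Endothelial genes had a mean level of 6.51 and 6.5, then 6.46 and 6.48, with none of 34 called and differences of 0.02, 0.05 and -0.10 for Pecam1, Cdh5 and Kdr. The receptor gene Nrp2, on chip B, was lower at 1.5-fold, at 7.42 and 7.2, then 6.63 and 6.44. Neural genes had 6.22 and 6.18, then 6.16 and 6.15, with none of 37 called. Ednrb (-0.84), Nefm (-0.76) and Hand2 (-0.83, also a mesenchymal factor), all on chip B, passed at 1.5-fold, while the glial factor Sox10, on the same chip, had a change of 0.24. On chip A a Sox10 probe set above the median had a change of 0.01 and one below it a change of -0.05. Leukocyte genes had 5.70 and 5.68, then 5.67 in both, with none of 36 called. Genes of stomach, gut, liver and spleen had 4.87 and 4.90, then 4.95 and 4.97; 1 of 31, the stomach protease Cym on chip B (0.99), passed at 1.5-fold. Of 14 genes of adrenal, kidney and gonad none passed. The part of these cells in the results above was not tested.

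The pools differed in sex-linked transcripts. Xist, the RNA that coats the inactive X chromosome of female cells, read 7.25 and 7.45, then 5.77 and 5.72, the largest fall of any gene (3.04-fold, limma adjusted p = 4.29e-07). The Y-linked Eif2s3y read 4.13 and 4.34, then 5.26 and 5.08, and Kdm5d on chip B 5.04 and 5.01, then 5.62 and 5.48, changes of 0.94 and 0.52. Uty was dim, with overlapping stages and a change of 0.11. The sex of the pooled embryos is not given in the labels, and its part in the other changes was not tested.

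The other called genes belong to no list above, and neither do Penk, Nol4, Dact1 and Gpc6, which were described beside the endocrine and Wnt lists. Serpina6, the glucocorticoid-binding globulin, was at 10.14 and 10.26, then 11.48 and 11.46 (2.41-fold), and a dimmer probe set gave a change of 1.2. The stress-induced chromatin protein Nupr1 read 5.90 and 5.89, then 7.32 in both arrays (2.69-fold). Gadd45a, another stress-induced gene, stood just under the minimum, at 5.99 in both e12.5 arrays and 7.0 and 6.98 at e13.5, and the metallothioneins Mt1 and Mt2 passed at 1.5-fold (0.78 and 0.74). Among the falls, Shisa2 and AW551984 on chip B had changes of -1.06 and -1.13; the chip C probe set of AW551984 gave -0.23. Eif5a2 on chip C was at 4.33 and 4.08, then 3.24 and 2.92, dim at the later day, and its dim chip B probe set gave -0.10.

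The signalling lists were near the background. None of 42 FGF and EGF genes, of 50 TGF-beta, BMP and hedgehog genes or of 23 retinoic acid genes was called, with medians of -0.03, -0.06 and -0.03. The mesenchymal ligand Fgf10, which drives progenitor growth, was dim, at 4.33, 4.39, 4.43 and 4.40. Spry1, a feedback inhibitor of FGF signalling, and Tgfbr1 had changes of -0.57 and -0.56 on chip B; the dim chip A probe set of Tgfbr1 had one of 0.31 (adjusted p = 0.125). Aldh1a1, which makes retinoic acid, passed at 1.5-fold on chip A at 5.75 and 5.29, then 6.33 and 6.12, while its dimmer probe set had a change of -0.10. Of 28 Hox genes 23 had a negative change, with a median of -0.05, and 1, Hoxb2 on chip B, passed at 1.5-fold (-0.60).

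The change from e14.5 to e15.5, a step that shares no array with this one, was used to ask whether the called changes were larger here. Over all genes 75 rose and 12 fell in that step, against 20 and 10 in this one. The difference between the steps passed the adjusted p and the 2-fold minimum for 81 genes, 0.507% of those tested. It did so for 9 of the 20 rises and for Xist, 1 of the 10 falls, each time with the larger change from e12.5 to e13.5; the genes had been chosen by the change that enters this difference. Chgb changed by 1.90 in this step and by -1.2 from e14.5 to e15.5, a difference of 3.10 (SE of the first change 0.068, adjusted p of the difference 1.19e-08), and Cck changed by 1.09 and then -1.0. Neurog3 changed by 1.27 and then -0.53, after levels of 7.76 at e13.5 and 7.95 at e14.5.

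Most acinar rises instead went on. Of the 20 rises, 9 were called in the same direction again from e14.5 to e15.5. Serpini2 changed by 2.26 and 2.16 in the 2 steps, Clps by 1.82 and 1.57, Cckar by 1.21 and 1.06 and Cela1 by 1.27 and 1.58, and for none of these 4 genes did the difference between the steps pass. Ctrb1 changed by 2.63 here and 0.78 later (adjusted p of the difference 4.75e-07), having reached 13.29 by e14.5. Prss2 changed by 1.92 and 0.89 (adjusted p of the difference 4.3e-05), and both differences passed. From e15.5 to e16.5 Ctrb1 changed by 0.12 but Prss2 by 3.14. Prss2 thus rose more in that step than in this one (limma difference -1.21, adjusted p = 7.48e-06). Ins2 changed by 1.89 here, 3.58 from e13.5 to e14.5 and 1.13 in the step after. Among the falls Hba-x was the 1 that was called again, by -1.71, and Sfrp1, Gpc6 and Dact1 had changes between -0.42 and -0.45.

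**Figure D5:**
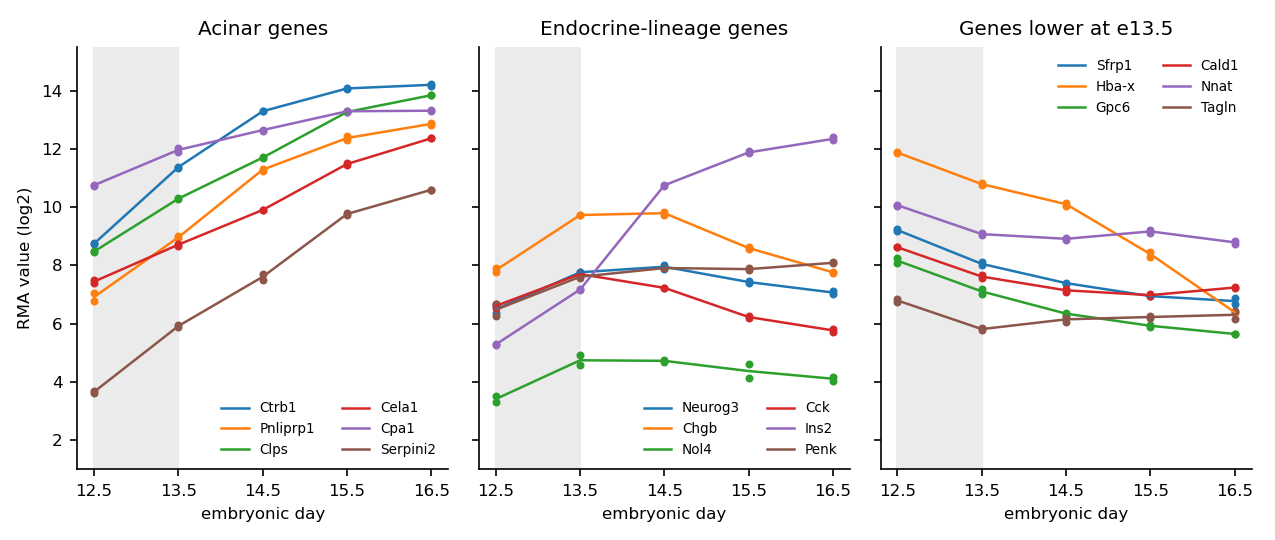
RMA values (log2) by embryonic day, with points for the 2 arrays of a stage and lines through their means. The shaded band is the step from e12.5 to e13.5. Nol4 and Penk, drawn with the endocrine genes, are in none of the lists. Each acinar gene is higher at e16.5 than at e13.5, Chgb, Neurog3 and Nol4 change by 0.06, 0.19 and -0.02 from e13.5 to e14.5 and Cck by -0.47, and the genes lower at e13.5, except Hba-x, have their largest change in the shaded step.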

How the data were processed

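RNA of the dorsal pancreas was hybridised to the 3 chips of the MG-U74 set. The deposited files give log2 values for each probe set; the submitters' processing notes name RMA, and no source used here gives the software version. The log base was inferred from the range of the values, which were used as deposited. Probe sets were named through the platform annotation: of 36701, 29131 had 1 gene symbol, 724 several and 6846 none, and the last 2 classes were not assigned to genes. Each gene was represented by the probe set that was brightest on average over the 10 arrays of its chip.

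Each chip was fitted with limma 3.58.1 in R 4.3.3 with stage as a factor over its 10 arrays, so that 5 stages share the estimate of spread, and p-values were adjusted over the 3 chips. The test was checked on simulated data. Arrays have no read depth; the 2 arrays a stage limit the precision, and p-values cover only labelling reactions of 1 pool.

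Genes were named as the 15 largest rises and falls, up to 4 called members of each of 39 lists (otherwise the member with the largest change) and landmark genes; 4 landmark or marker genes were not analysed here. Other list members, and genes past the 1.5-fold minimum, were named after their values were seen. Members and lists were chosen with earlier results of these data known. Alternatives varied the arrays, scaling, filter, adjustment, fold, probe sets and replicate block; leaving out chip B, cyclic loess and the plain probe set design were chosen after seeing the data.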

Additional observations from a re-analysis of the deposited data

Results flagged for a closer look

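For 6 of the genes that rose from e12.5 to e13.5 the change from e14.5 to e15.5 had the opposite sign, and the limma test of the difference between these steps passed its adjusted p and 2-fold minimum. The difference between the steps (log2) was 3.10 for Chgb, 2.10 for Cck, 1.80 for Neurog3, 1.68 for Nol4, 1.41 for Osr2 and 1.17 for Penk. All 6 had been picked by the change in the earlier step. The value of Chgb rests on a probe set of shared design and that of Osr2 on chip B. For Penk the change in the later step was -0.04 and for Nol4 -0.35, and neither passed (limma adjusted p = 0.884 and 0.173).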

How the results depend on the processing

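The 30 called genes were the same with only the 4 arrays of the 2 days, with arrays centred on their median, with an intensity trend, with p-values adjusted within each chip and with the replicate block (20 rises and 10 falls). The replicate numbers did not pair the arrays: the gaps of the reactions correlated across stages between -0.18 and 0.11. Leaving out 1 reaction left 29 to 36 called genes, of which 25 to 29 were among the 30; without replicate 1 of e12.5 Osr2, Gpc6, Shisa2, Dact1 and Eif5a2 were lost, without replicate 2 of e12.5 Penk, without replicate 1 of e13.5 Pgm5 and Dact1, and without replicate 2 of e13.5 Cald1, Gpc6 and Eif5a2. Repeated quantile normalization left 6 genes lower, with Pgm5, Cald1, Sfrp1, Gpc6 and Dact1 lost, and cyclic loess lost Pgm5 and Cald1. Chips A and C alone gave 6 probe sets and 3 genes lower. Probe sets of the plain design alone gave 17 probe sets and 13 genes higher. Ins2, Ctrb1, Prss2, Penk, Serpini2 and Nol4 were lost there because they have no probe set of that design. Chgb and Eif5a2 were lost because another, dim probe set was read. That setting gave 5 called genes with a difference between the steps, against 10, and with e16.5 minus e15.5 as the later step there were 19. The mean over a gene's probe sets lost Ins2, Chgb, Penk, Clu, Cald1 and Dact1. A 1.5-fold minimum gave 108 probe sets higher and 193 lower and 70 and 103 genes, no minimum 2053 and 2069 probe sets and 1106 and 1228 genes, and a 3-fold minimum 9 and 1 probe sets and 7 and 1 genes.

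Signs turned for Chgb (-0.051) and Ero1b (-0.059) with the plain design, which reads their dim probe sets, for Smarca5 (0.10) and Tgfbr1 (0.31) on chips A and C alone, and, with 1 reaction left out, for Amy2a5 (-0.24 to 0.50), Cdh1 (-0.011 to 0.12) and Sox9 (-0.062 to 0.16). The causes were not tested. Probe sets below the chip median limit what can be said of dim genes: with bright probe sets alone Shisa2 and Eif5a2 were not tested.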

Other observations

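Some called probe sets are not the brightest of their gene. A probe set of the BMP receptor Bmpr2 on chip A read 5.43 and 5.46, then 6.97 and 6.86 (2.77-fold higher), while its brightest, on chip C, had a change of -0.10. Probe sets of the kinase Csnk1a1 were lower by 1.45 (chip B) and 1.05 (chip C) on the log2 scale, while the brightest, on chip A, had a change of 0.13. Probe sets of the integrin Itga9 and of Rragd on chip B had changes of -1.13 and -1.33. A chip A probe set annotated to several trypsinogens at once read 6.93 and 6.75, then 7.92 and 7.87. Of 5 called probe sets with no gene name, 3 were higher (1.56, 1.33 and 1.16) and 2 lower (-1.08 and -1.13).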
